A study of Mus musculus with 12 samples.

Results

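The fast response of ET cells to TCDD was read on the 4 arrays of 2 h among the 12 arrays of the series. The 4 arrays were chosen by their titles: 2 from cells given 5 nM TCDD for 2 h, set against 2 from cells given the solvent 1,4-dioxane at 0.05% by volume for 2 h. ET is a mouse line of cortical thymic epithelium from a fetus, per its labels, and TCDD is a chlorinated dioxin and a ligand of AhR, the aryl hydrocarbon receptor. The same pair of treatments was also measured at 4 h and at 6 h on 8 other arrays, each time with its own 2 solvent arrays, so the 3 comparisons shared no array. The labels give no genetic change in any group, and the sources used here do not say how much dioxane the TCDD wells received. Each group held 2 arrays that carry the replicate numbers 1 and 2. The design text calls them biological duplicates without naming the repeated step. All p-values below therefore reflect the spread between arrays alone, which may be technical in part.

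AhR rests in the cytoplasm with the chaperone Hsp90 until a ligand such as TCDD binds it. It then enters the nucleus, pairs with Arnt and binds response elements with the core GCGTG, and nearby genes such as those of the P450 enzymes of the Cyp1 family are transcribed. The products of Tiparp and Ahrr, which are targets themselves, limit the receptor once it is active. In the thymus this pathway is best known from the shrinkage of the organ in animals given TCDD, in which both thymocytes and the epithelial stroma have been studied.

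To show where the letters of the core lie, sequences from 250 bases before to 50 bases after the annotated start are printed for some genes. These are Cyp1a1 and Cpox, which passed the test, Tiparp and Cdkn1a, at ranks 2 and 3 of the higher genes, and Rgs4, the first of the lower genes. They come from RefSeq on build GRCm38.p6 and run 5′ to 3′ on the strand of the gene. Capitals mark GCGTG or, read on the opposite strand, CACGC. The windows are chr9:57697363-57697662 on the plus strand for Cyp1a1, chr3:65528197-65528496 on the plus strand for Tiparp, chr16:58669958-58670257 on the plus strand for Cpox, chr17:29093519-29093818 on the plus strand for Cdkn1a and chr1:169747593-169747892 on the minus strand for Rgs4.
Cyp1a1: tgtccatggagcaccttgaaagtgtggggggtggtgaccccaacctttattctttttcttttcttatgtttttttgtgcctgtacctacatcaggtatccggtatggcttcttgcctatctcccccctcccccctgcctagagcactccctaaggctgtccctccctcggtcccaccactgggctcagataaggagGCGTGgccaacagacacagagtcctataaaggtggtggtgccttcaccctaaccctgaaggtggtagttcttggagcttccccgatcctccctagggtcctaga
Tiparp: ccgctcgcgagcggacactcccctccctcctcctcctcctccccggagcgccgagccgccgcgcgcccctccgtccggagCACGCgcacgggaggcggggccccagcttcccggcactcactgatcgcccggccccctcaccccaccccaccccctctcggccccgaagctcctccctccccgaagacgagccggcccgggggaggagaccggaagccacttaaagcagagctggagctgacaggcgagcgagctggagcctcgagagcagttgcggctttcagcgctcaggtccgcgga
Cpox: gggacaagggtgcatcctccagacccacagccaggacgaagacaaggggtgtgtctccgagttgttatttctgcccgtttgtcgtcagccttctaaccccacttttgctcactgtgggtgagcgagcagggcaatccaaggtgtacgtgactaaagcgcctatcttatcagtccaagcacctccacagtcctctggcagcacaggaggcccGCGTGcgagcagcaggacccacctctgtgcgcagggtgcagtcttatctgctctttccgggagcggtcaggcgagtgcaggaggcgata
Cdkn1a: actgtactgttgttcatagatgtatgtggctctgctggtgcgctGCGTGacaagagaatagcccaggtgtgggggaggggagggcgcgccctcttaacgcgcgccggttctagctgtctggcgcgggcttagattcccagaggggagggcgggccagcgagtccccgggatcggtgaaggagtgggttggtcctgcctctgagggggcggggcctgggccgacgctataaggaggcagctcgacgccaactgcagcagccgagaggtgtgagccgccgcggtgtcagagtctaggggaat
Rgs4: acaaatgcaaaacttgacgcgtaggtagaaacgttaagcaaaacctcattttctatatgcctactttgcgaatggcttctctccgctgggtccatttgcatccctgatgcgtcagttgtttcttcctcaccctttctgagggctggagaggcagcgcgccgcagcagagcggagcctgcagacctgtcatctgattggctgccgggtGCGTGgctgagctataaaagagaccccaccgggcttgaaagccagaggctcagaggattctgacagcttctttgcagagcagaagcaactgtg

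Each of the 5 windows held 1 match, with its first base at -54 from the start for Cyp1a1, -170 for Tiparp, -39 for Cpox, -206 for Cdkn1a and -43 for Rgs4. Of the first 20 higher genes, ranked as described below, 15 had a window, and 11 of these held GCGTG on either strand. Of the first 10 lower genes, 6 had a window, and 4 held it. The background was high: 32.4% of all 32851 windows of this length held the 5 letters, and so did 55.3% of the 7575 tested genes with a window. The longer motif TNGCGTG, which contains GCGTG, was found in the window of 1 higher gene, Cdkn1b, and of 1 lower gene, Adamts1, against 9.39% of the tested genes. None of the 5 printed windows held it. A match is a description of these letters and not a binding site.

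The deposited values were log2 levels per probe set made with RMA, and 15762 probe sets with a mean log2 level of 4 or more over the 12 arrays were tested, for 9391 named genes. Pearson's r between the arrays of 2 h, across these probe sets, ran between 0.978 and 0.989. Arrays of the same number were more alike (0.989 for number 1 and 0.984 for number 2) than the TCDD arrays (0.980) or the solvent arrays (0.978) were among themselves. The first TCDD array of 4 h stood apart from all others, with r of 0.925 to 0.973, where the lowest r among the other 11 arrays was 0.959. It enters the tests at 2 h only through the filter on the mean of the 12 arrays and the shared estimate of the spread. Titles set the groups, since the treatment field of the second 4 h TCDD array named the solvent, and the descriptions of both 6 h solvent arrays gave 4 h.

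The markers of the labelled cell type were mostly low. Of 14 cortical epithelial markers on the array, 5 passed the filter on low values, among them Ctsl at a mean log2 level of 11.4, the keratin Krt8 at 5.04, Ccl25 at 5.90, Dll4 at 4.63 and Foxn1 at 4.36. The epithelial genes Epcam, Cdh1 and Krt18 and the thymus protease Prss16 lay below it. All 16 fibroblast and mesenchyme markers passed, with a median percentile of 96.2 among the probe sets, against 27.3 for the cortical list. Levels can be compared only roughly between probe sets. Of 10 markers of thymocytes and other blood cells on the array, 5 passed as well, with a median percentile of 27.5. Cd3e among them stood at 5.56 and Cd4 at 5.53. Of 10 medullary epithelial markers, 6 passed. Passing the filter at such levels does not by itself show that a cell type was present. The levels of 2 h therefore describe the ET line as deposited, without a check of its epithelial identity. No marker of the 5 cell type lists had both TCDD minus solvent differences at 1 or more in size. Of the 16 fibroblast and mesenchyme markers, 4 had both differences below 0 and 0 both above 0, beside 13.4% and 14.2% of tested genes. Snai2, a zinc finger factor of mesenchyme, read 6.6 and 6.1 with TCDD, against 7.1 and 7.3 in solvent, and the helix-loop-helix factor Twist1 read 6.3 and 7.2 with TCDD, against 7.0 and 7.6 in solvent. The levels of the list, summed before taking log2, gave 15.1 and 14.8 with TCDD, against 15.1 and 15.1 in solvent. The most abundant members weigh most in this sum. The part of this in the results below was not tested. In bulk RNA, fewer cells of a type and less RNA per cell cannot be told apart.

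After 2 h with TCDD, the P450 gene Cyp1a1 and the haem synthesis gene Cpox rose, and no gene passed the test in the other direction. In all, 3 probe sets of these 2 genes passed limma's adjusted p of 0.05 (0.019% of those tested), and 234 had an unadjusted p under 0.05, fewer than the 788 that chance alone would give. When replicate numbers were blocked at each time, 1 probe set passed, that of Cyp1a1, and those of Cpox did not. Limma on the 4 arrays of 2 h alone passed 0. With so few arrays, a gene that did not pass is not shown to be unchanged.

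The difference between TCDD and solvent was therefore also taken within each replicate number, which gives 2 values for each probe set. A log2 difference of 1 is a 2-fold difference. Both values were 1 or more for 32 probe sets of 24 named genes (0.203% of those tested), and both were -1 or less for 7 probe sets of 7 genes (0.0444%). With the numbers crossed, so that each TCDD array was set against the other solvent array, 17 and 2 probe sets reached the same size. Among all tested probe sets, 102 differed by 1 or more in size within number 1 and 217 within number 2. The 42 that did so in both included 3 with opposite signs. The TCDD arrays lay 1 or more apart from each other for 395 probe sets and the solvent arrays for 421. Across all tested probe sets the 2 within-number differences were uncorrelated (Pearson's r -0.001). All differences within 1 number come from the same 2 arrays, so they are not independent of each other.

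**Figure D1:**
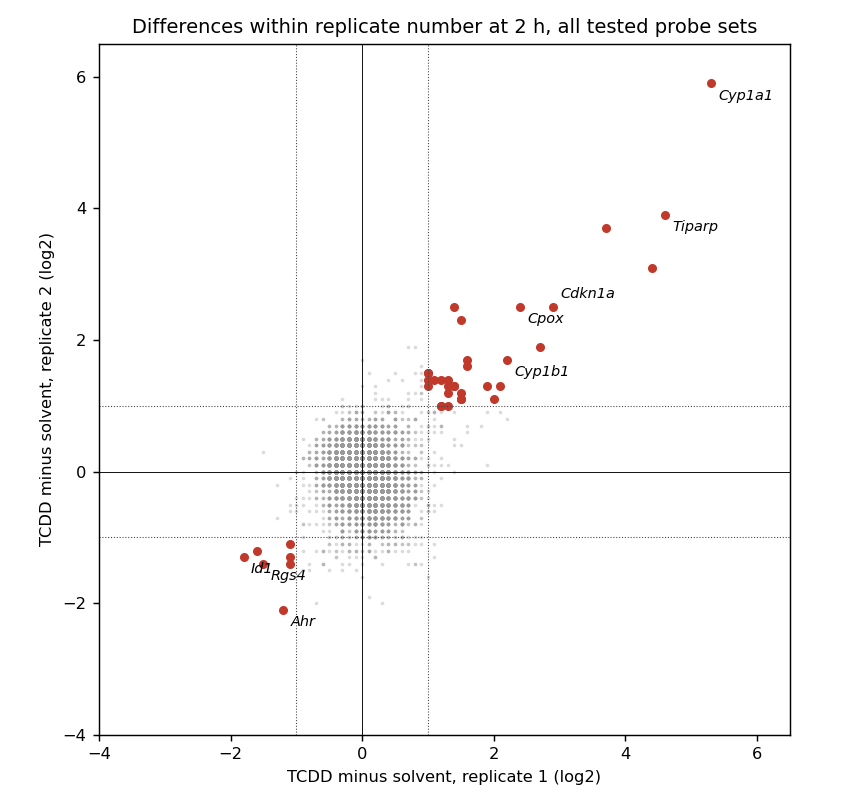
Each point is a tested probe set, with its TCDD minus solvent difference (log2) in replicate 1 on the horizontal axis and in replicate 2 on the vertical axis. Red points have both differences at 1 or more in size in the same direction (32 upper right, 7 lower left), grey points are all others, and dotted lines mark 1 and -1; Cyp1a1 lies farthest out at 5.3 and 5.9.

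Just inside this size, of the named genes, were Spsb1, Tcf21, Tslp, Gch1 and Ndrg1 on the higher side, with a smaller difference of 1.0. For Ndrg1 this holds on a probe set other than the one that stands for it in its list below, which fell short of this size. Just outside it, at 0.9, were 17 probe sets on the higher side, among them those of Nfe2l2, Irf1 and Hes1, and 3 on the lower side, of Ccl7, Adamts1 and Zfp503. The first 20 higher and the first 10 lower genes by the smaller of the 2 differences are described below by function. Of the 32 higher probe sets, 26 had both TCDD arrays above both solvent arrays, as had 7.15% of all tested, and of the 7 lower ones 5 had both below, as had 6.62% of all. The choice by size itself favours such a separation. The same 2 shares are the background wherever genes are said below to be apart or without overlap.

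Cyp1a1 encodes the P450 enzyme that oxidises polycyclic aromatic compounds. Its log2 level was 9.3 and 10.2 on the TCDD arrays, against 4.0 and 4.3 on the solvent arrays. The solvent levels lay at the filter value, so the fold is uncertain in size. The fitted difference was 5.60 ± 0.45 (SE), a 48.5-fold rise (limma adjusted p = 0.00384, and 0.00481 with the replicate block). It did not pass without the second TCDD array of 2 h (adjusted p = 0.0664), the first solvent array (0.132) or the second solvent array (0.0884), with 2.98e-05 to 1 over 25 alternative settings.

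Cpox encodes coproporphyrinogen oxidase, a mitochondrial enzyme late in haem synthesis, and haem is the prosthetic group of every P450 enzyme. Probe set 1422493_at read 9.0 and 8.8 with TCDD, against 6.6 and 6.3 in solvent, a difference of 2.45 ± 0.24 (SE) and a 5.46-fold rise (limma adjusted p = 0.0133). Probe set 1422492_at read 8.3 and 7.6 with TCDD, against 5.6 and 5.7 in solvent, a difference of 2.30 ± 0.27 (SE) and a 4.92-fold rise (adjusted p = 0.0460). With the replicate block the adjusted p was 0.106 and 0.119, so the call of Cpox was lost there. Without any single array of 2 h, or either solvent array of 4 h, neither probe set passed (adjusted p = 0.0605 to 0.426). Probe set 1422492_at also failed without any single array of 6 h (0.0809 and 0.0827). The TCDD and solvent arrays did not overlap on either probe set, and the differences within replicate number lay between 1.9 and 2.7.

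No other gene of the haem pathway passed the test. Of 12 tested genes of haem synthesis and breakdown, 2 had both differences above 0 and 3 both below 0. Over all 9391 genes, 14.2% had both above 0 and 13.4% both below 0. The median difference was 0.08, beside 0.00 over all genes. Alas1, the first and usually limiting enzyme of the pathway, read 7.5 and 7.6 with TCDD, against 7.6 and 7.3 in solvent. Urod, the enzyme just before Cpox, read 6.9 and 7.1 with TCDD, against 7.0 and 6.8 in solvent. Groups overlapped for both. These 2 genes were named after their values were seen.

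Tiparp, an ADP-ribosyltransferase that modifies AhR and restrains it, had the second largest smaller difference. Probe set 1452160_at read 7.7 and 7.9 with TCDD, against 3.1 and 4.0 in solvent (4.25 ± 0.58 SE, limma adjusted p = 0.0745). Probe set 1426721_s_at read 8.9 and 9.2 with TCDD, against 4.5 and 6.1 in solvent (3.75 ± 0.56 SE, adjusted p = 0.136). Probe set 1452161_at read 7.4 and 8.2 with TCDD, against 3.7 and 4.5 in solvent (3.70 ± 0.63 SE, adjusted p = 0.297). All 3 probe sets were higher on both TCDD arrays without passing the test. In solvent, 1452160_at and 1452161_at read close to the filter value of 4 or below it, so the sizes of their differences are uncertain. On no solvent array of any time did 1452160_at read above 4.0, so it passed the filter through its TCDD arrays. The rank of Tiparp was taken from it. On 1426721_s_at the smaller difference was 3.1, beside 2.5 for Cdkn1a at rank 3. Without either TCDD array of 4 h all 3 passed (adjusted p = 0.000719, 0.0175 and 0.0105), since the spread of that pair then left the fit. The pair read 5.1 and 7.4 on 1452160_at.

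Cyp1b1, the other inducible P450 of this family in many cell types, read 9.8 and 9.0 with TCDD, against 7.6 and 7.3 in solvent (1416613_at, 1.95 ± 0.40 SE). Its probe set 1416612_at read 11.7 and 11 with TCDD, against 9.8 and 9.7 in solvent (1.60 ± 0.40 SE). Aldh3a1, an aldehyde dehydrogenase, read 9.9 and 9.2 with TCDD, against 8.3 and 7.6 in solvent. Its difference was 1.60 in both replicate numbers, and number 1 was 0.7 above number 2 under both treatments. The limma adjusted p was 0.634, 1 and 0.514 for these 3 probe sets.

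Other known AhR targets lay between these and no difference. Nfe2l2, the transcription factor NRF2, read 8.6 and 8.7 with TCDD, against 6.5 and 7.8 in solvent. Nqo1, a quinone reductase, read 8.3 and 8.5 with TCDD, against 7.7 and 7.5 in solvent. Xdh, xanthine dehydrogenase, read 8.9 and 8.8 with TCDD, against 8.3 and 8.2 in solvent. The groups of these 3 genes did not overlap, and their differences were 1.5, 0.80 and 0.60. Of all tested probe sets, 7.15% had TCDD higher without overlap. Serpinb2, a protease inhibitor, overlapped, with 3.4 and 5.0 for TCDD and 3.2 and 3.9 for solvent. The P450 gene Cyp2s1 and the amino acid transporter Slc7a5 each differed by 0.15, and the flavin monooxygenase Fmo2 by -0.10.

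Of the 20 AhR targets listed, 16 were on the array and 11 passed the filter, and 1 of these, Cyp1a1, passed the test. Both differences were above 0 for 9 of the 11 and below 0 for 1, beside 14.2% and 13.4% of all tested genes. The median difference of the 11 was 0.80 at 2 h, 1.20 at 4 h and 0.95 at 6 h, and over all genes it was 0.00, 0.00 and -0.05. A member that is high only with TCDD could pass the filter through those arrays, so the 11 are not all members. The 5 below the filter were the AhR repressor Ahrr, Cyp1a2, Gsta2, Selenbp1 and Lrat, with mean log2 levels of 3.33, 3.69, 3.70, 3.60 and 3.07.

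**Figure D2:**
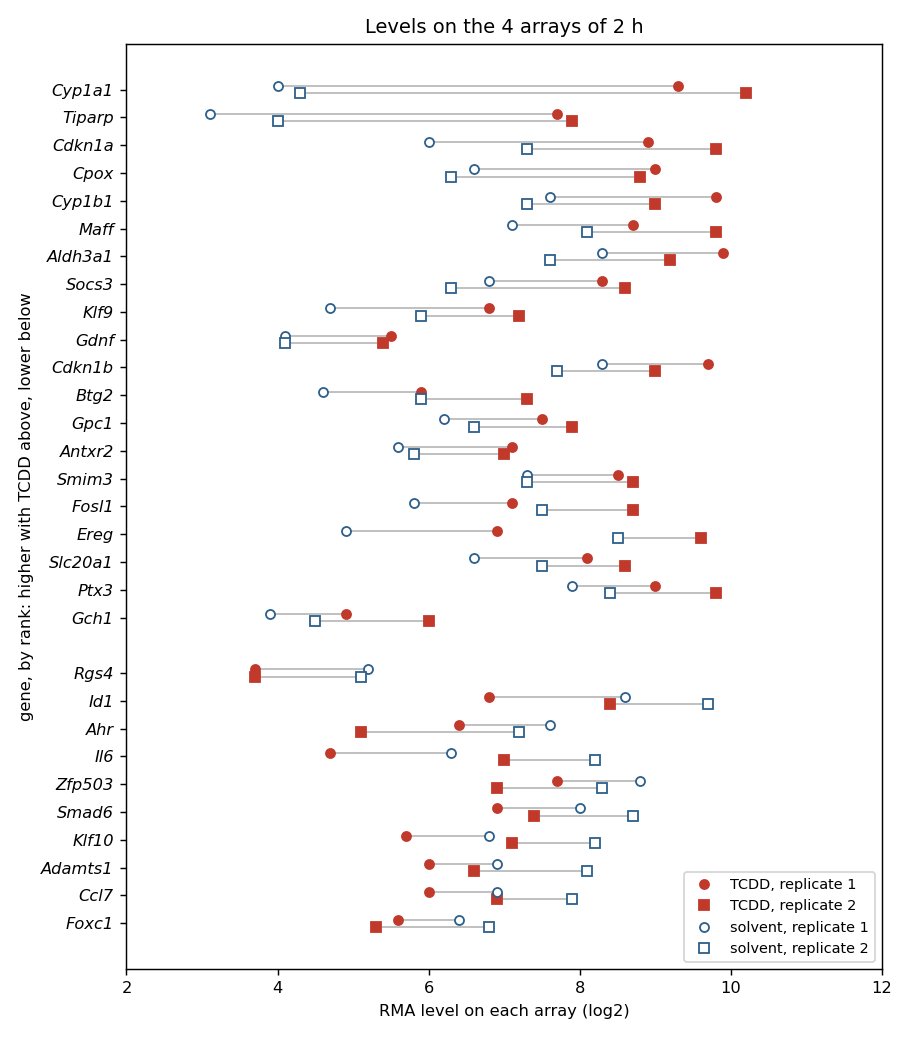
Log2 RMA level on each of the 4 arrays of 2 h for the first 20 higher genes (top) and the first 10 lower genes (bottom) by rank; filled red symbols are TCDD, open blue symbols solvent, circles replicate 1 and squares replicate 2, and a line joins the arrays of 1 number. Cyp1a1 and Tiparp have the longest lines, and for genes such as Ereg, Fosl1 and Il6 the squares lie well to the right of the circles under both treatments.

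The receptor gene itself gave discordant readings. Ahr probe set 1422631_at read 6.4 and 5.1 with TCDD, against 7.6 and 7.2 in solvent (-1.65 ± 0.83 SE, limma adjusted p = 1), and it was the third of the lower genes by rank. Probe set 1450695_at read 4.2 and 4.3 with TCDD and the same in solvent, a flat reading near the filter value. On the first probe set the groups overlapped at 4 h, at 4.8 and 7.6 for TCDD and 7.3 and 7.3 for solvent, the 4.8 being from the array that stood apart. They overlapped at 6 h too, at 7.8 and 6.6 for TCDD and 8.0 and 6.6 for solvent.

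None of the 14 tested genes for AhR, its partners, chaperones and coactivators passed, and their median difference was -0.05. Arnt, the partner of AhR, read 4.8 and 4.6 with TCDD, against 4.7 and 4.7 in solvent. Nrip1, a corepressor, read 5.5 and 4.4 with TCDD, against 6.1 and 5.8 in solvent, a difference of -1.0 ± 0.51 (SE).

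Among regulators of the cell cycle, the tested Cip/Kip kinase inhibitors Cdkn1a and Cdkn1b had both TCDD arrays above both solvent arrays. Cdkn1a, which encodes p21, read 8.9 and 9.8 with TCDD, against 6.0 and 7.3 in solvent (1424638_at, 2.70 ± 0.61 SE, limma adjusted p = 0.833). Its probe set 1421679_a_at read 5.3 and 6.7 with TCDD, against 4.4 and 5.1 in solvent (1.25 ± 0.43 SE). Cdkn1b, which encodes p27, read 9.7 and 9.0 with TCDD, against 8.3 and 7.7 in solvent (1.35 ± 0.32 SE, adjusted p = 0.890). Cdkn1a was higher on number 2 than on number 1 under both treatments, and Cdkn1b was higher on number 1. Btg2, an antiproliferative p53 target, read 5.9 and 7.3 with TCDD, against 4.6 and 5.9 in solvent, so its groups touched at 5.9 on 1448272_at. On its other probe set, 1416250_at, they were apart, at 6.3 and 7.7 with TCDD, against 5.4 and 6.2 in solvent.

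Other p53 targets were nearer to solvent. Bbc3, which encodes the proapoptotic protein Puma, read 5.2 and 5.0 with TCDD, against 4.7 and 4.6 in solvent. Mdm2, the ligase that limits p53, read 7.4 and 7.6 with TCDD, against 7.2 and 7.9 in solvent, and was named after its values were seen. Of 19 tested kinase inhibitors and p53 targets, 7 had both differences above 0 (36.8%) and 4 both below 0 (21.1%). None passed, and the median was 0.15. Of 25 G1/S and G2/M genes, 6 had both above 0 (24.0%) and 1 both below 0 (4.0%). Their range was narrow, between -0.20 and 0.40. Over all tested genes, 14.2% had both above 0 and 13.4% both below 0. The D cyclin Ccnd3 read 9.1 and 9.0 with TCDD, against 8.8 and 8.7 in solvent.

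Several transcription factors of early responses were among the higher genes. Maff, a small Maf protein that pairs with NRF2 and related factors, read 8.7 and 9.8 with TCDD, against 7.1 and 8.1 in solvent (1.65 ± 0.43 SE). Klf9, a zinc finger repressor, read 6.8 and 7.2 with TCDD, against 4.7 and 5.9 in solvent (1456341_a_at, 1.70 ± 0.35 SE, limma adjusted p = 0.634). Its probe sets 1428288_at and 1428289_at were also without overlap (1.5 and 1.40), while 1436952_at stood at -0.15 near the filter value. Fosl1, the AP-1 subunit Fra-1, read 7.1 and 8.7 with TCDD, against 5.8 and 7.5 in solvent, so the groups overlapped on 1417488_at although both differences were above 1. On 1417487_at they did not overlap, at 9.1 and 10.1 with TCDD, against 7.6 and 9.0 in solvent.

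Some genes differed more between replicate numbers than between treatments at 2 h. The immediate early gene Fos read 4.1 and 6.3 with TCDD, against 4.4 and 6.0 in solvent, and Egr1 read 6.7 and 8.9 with TCDD, against 7.4 and 8.7 in solvent. The haem oxygenase gene Hmox1 read 8.1 and 10.3 with TCDD, against 8.1 and 10.2 in solvent, and the metallothionein gene Mt1 read 7.3 and 9.6 with TCDD, against 7.3 and 10.5 in solvent. These 4 genes, named after their values were seen, were all higher on both arrays of number 2. The part of this difference between numbers in the results for Fosl1, Ereg, Il6 and Klf10 was not tested.

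Of 29 tested immediate early and AP-1 genes, 8 had both differences above 0 (27.6%) and 4 both below 0 (13.8%). The shares over all genes were 14.2% and 13.4%, and the list median was 0.00. Btg1, an antiproliferative gene, read 10.4 and 10.6 with TCDD, against 9.7 and 9.8 in solvent (0.75 ± 0.15 SE). Klf10, a target of TGF-beta, was on the lower side at 5.7 and 7.1 with TCDD, against 6.8 and 8.2 in solvent. Of 24 NRF2, small Maf and antioxidant genes, 9 had both differences above 0 (37.5%, beside 14.2% of all genes) and 2 both below 0 (8.33%, beside 13.4%), with a median of 0.05. Cbr3, a carbonyl reductase, read 9.4 and 10.3 with TCDD, against 8.8 and 8.9 in solvent, while Bach1, a repressor of NRF2 targets, read 6.6 and 6.5 with TCDD, against 7.0 and 7.3 in solvent.

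Genes of cytokine signalling were found on both sides. Socs3, the inhibitor that ends signalling through gp130 and JAK kinases, read 8.3 and 8.6 with TCDD, against 6.8 and 6.3 in solvent (1456212_x_at, 1.90 ± 0.25 SE, limma adjusted p = 0.0604). Probe set 1455899_x_at read 9.2 and 9.7 with TCDD, against 7.8 and 7.2 in solvent (1.95 ± 0.30 SE, adjusted p = 0.141). Probe set 1416576_at read 7.8 and 8.5 with TCDD, against 7.0 and 6.6 in solvent (1.35 ± 0.32 SE). All 3 were without overlap, and the difference was the larger within number 2 on each. Without either TCDD array of 4 h the first and the second passed (adjusted p = 0.0163 and 0.0323).

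Lif, a cytokine of the IL-6 family, read 5.5 and 7.7 with TCDD, against 4.8 and 5.8 in solvent, and the groups overlapped. Il6 itself was on the lower side, at 4.7 and 7.0 with TCDD, against 6.3 and 8.2 in solvent, and the groups overlapped. Jak1, a kinase of these receptors, read 9.1 and 8.9 with TCDD, against 8.2 and 8.5 in solvent. Of the 25 tested genes of the IL-6 family list, 6 had both differences above 0 and 6 both below 0 (24.0% each). Over all tested genes the shares were 14.2% and 13.4%. The list median was 0.00.

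In the NF-kB, chemokine and interferon factor list, 6 of 24 genes had both differences above 0 and 6 both below 0 (25.0% each). These shares were 14.2% and 13.4% over all tested genes. The median of the list was 0.00. Irf1, an interferon response factor, read 8.5 and 8.0 with TCDD, against 7.4 and 7.1 in solvent (1.00 ± 0.23 SE). Tnfaip2, a TNF-induced gene, read 8.9 and 8.7 with TCDD, against 8.2 and 7.6 in solvent. The monocyte chemokine genes Ccl7 and Ccl2 were on the lower side: Ccl7 read 6.0 and 6.9 with TCDD, against 6.9 and 7.9 in solvent, and Ccl2 read 7.3 and 7.8 with TCDD, against 7.9 and 8.7 in solvent. Ccl7 touched at 6.9.

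The lower genes included Id1 and Smad6, both targets of bone morphogenetic proteins. Id1, an inhibitor of basic helix-loop-helix factors, read 6.8 and 8.4 with TCDD, against 8.6 and 9.7 in solvent (-1.55 ± 0.54 SE, limma adjusted p = 1). Id3, of the same family, read 9.3 and 9.8 with TCDD, against 10.2 and 10.6 in solvent (-0.85 ± 0.21 SE). Smad6, an inhibitory Smad induced by the pathway, read 6.9 and 7.4 with TCDD, against 8.0 and 8.7 in solvent (-1.20 ± 0.30 SE). The groups did not overlap for these 3 genes, and 6.62% of all tested probe sets had TCDD lower without overlap. Of the other Id genes, Id4 stood at -0.70 and Id2 at 0.30, with 9.1 and 9.2 for TCDD and 8.4 and 9.3 for solvent.

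Of 30 tested BMP and TGF-beta genes, 11 had both differences below 0 and 4 both above 0, beside 13.4% and 14.2% of all genes, and none passed. The median was -0.08, against 0.00 over all genes. On the higher side was Gdnf, a neurotrophic ligand of the TGF-beta superfamily that signals through Ret, with 5.5 and 5.4 for TCDD and 4.1 and 4.1 for solvent (1.35 ± 0.28 SE, limma adjusted p = 0.634). Its solvent level lay near the filter value. Grem1, a BMP antagonist, read 7.1 and 7.8 with TCDD, against 6.5 and 7.3 in solvent.

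Rgs4, which accelerates GTP hydrolysis by G protein alpha subunits, came first among the lower genes. Probe set 1416286_at read 3.7 and 3.7 with TCDD, against 5.2 and 5.1 in solvent (-1.45 ± 0.19 SE, limma adjusted p = 0.0604). Probe set 1416287_at read 4.8 and 4.7 with TCDD, against 5.7 and 5.1 in solvent (-0.65 ± 0.22 SE). Neither overlapped. Without either TCDD array of 4 h the first passed (adjusted p = 0.0448), and in the set-blocked fit below it passed too, while its TCDD level lay below the filter value, so the size is uncertain. A further probe set, 1448285_at, was below the filter, with a mean log2 level of 3.08. Of the 7 tested genes of the family, 3 had both differences below 0 and none both above 0, beside 13.4% and 14.2% of all tested genes.

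Other genes on the lower side without overlap encode transcription factors and a protease. Zfp503, a zinc finger repressor, read 7.7 and 6.9 with TCDD, against 8.8 and 8.3 in solvent (1423835_at, -1.25), and its other probe set stood at -1.05. Foxc1, a forkhead factor of mesenchyme, read 5.6 and 5.3 with TCDD, against 6.4 and 6.8 in solvent. Adamts1, a secreted metalloprotease, read 6.0 and 6.6 with TCDD, against 6.9 and 8.1 in solvent.

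Genes of the cell surface and the matrix were also among the first 20. Gpc1, a glypican that carries heparan sulfate, read 7.5 and 7.9 with TCDD, against 6.2 and 6.6 in solvent (1.30 ± 0.33 SE). Antxr2, a receptor for matrix proteins, read 7.1 and 7.0 with TCDD, against 5.6 and 5.8 in solvent (1.35 ± 0.24 SE, limma adjusted p = 0.339). Ptx3, a secreted pentraxin of innate immunity, read 9.0 and 9.8 with TCDD, against 7.9 and 8.4 in solvent. The groups of all 3 were apart with TCDD higher, as were those of 7.15% of all tested probe sets. In the list of 26 matrix genes, 7 had both differences above 0 and 3 both below 0. The shares over all tested genes were 14.2% and 13.4%, and the list median was 0.00.

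The epidermal growth factor receptor ligand Ereg read 6.9 and 9.6 with TCDD, against 4.9 and 8.5 in solvent. Its replicate numbers differed by more than its treatments, so the standard error was large (1.55 ± 1.10). Without the first solvent array of 2 h its difference turned to -0.25. Spry1, a feedback inhibitor of receptor kinases, read 7.6 and 7.4 with TCDD, against 6.4 and 6.7 in solvent. Dusp1, a phosphatase of MAP kinases, read 6.4 and 7.8 with TCDD, against 7.5 and 8.3 in solvent. Of 16 genes of this list, 3 had both differences above 0 and 5 both below 0, beside 14.2% and 13.4% of all tested genes.

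The first 20 held 3 further genes of metabolism and transport. Slc20a1, a sodium-dependent phosphate transporter, read 8.1 and 8.6 with TCDD, against 6.6 and 7.5 in solvent. Gch1, the first enzyme of tetrahydrobiopterin synthesis, read 4.9 and 6.0 with TCDD, against 3.9 and 4.5 in solvent. Smim3, which encodes a small membrane protein, read 8.5 and 8.7 with TCDD, against 7.3 and 7.3 in solvent. All were apart between groups with TCDD higher, as were 7.15% of all tested probe sets. Their differences were 1.30, 1.25 and 1.30. The other probe set of Gch1, 1420499_at, stood at 1.15 with overlapping groups.

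Among cytokines through which thymic stroma acts on thymocytes, Tslp had both differences at 1 or more. It read 5.5 and 5.3 with TCDD, against 4.2 and 4.3 in solvent (1.15 ± 0.33 SE), near the filter value. Csf1, the macrophage growth factor, read 8.2 and 8.4 with TCDD, against 8.8 and 9.1 in solvent, and Wnt4 read 6.2 and 6.6 with TCDD, against 6.7 and 7.1 in solvent. Il7, the main thymic lymphocyte growth factor, lay below the filter at 2.87. Of the 10 tested genes, 2 had both differences above 0 and 4 both below 0, beside 14.2% and 13.4% of all tested genes.

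In the other lists the members with both differences of 1 sign are set beside 14.2% of all tested genes above 0 and 13.4% below. Of 25 ER stress and amino acid genes, 6 had both above 0 and 2 both below 0, led by Ddit4, an inhibitor of mTORC1, at 8.1 and 8.6 with TCDD, against 7.2 and 7.4 in solvent. Creb3l1, a transcription factor released from membranes and on the same list, read 8.7 and 8.2 with TCDD, against 7.5 and 7.5 in solvent. The Notch target Hes1 read 6.1 and 7.1 with TCDD, against 5.0 and 6.2 in solvent, in a list with 4 of 16 above 0 and 6 below 0 in both. Of 18 hypoxia and glycolysis genes, 3 had both above 0 and 0 both below 0, led by Ndrg1 at 9.1 and 10.2 with TCDD, against 8.3 and 9.0 in solvent. Of 14 clock genes, 1 had both above 0 and 4 both below 0. Of 8 prostaglandin genes the counts were 2 and 1, and of 9 metallothionein and zinc genes 1 and 2. No member of these lists passed the test.

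**Figure D3:**
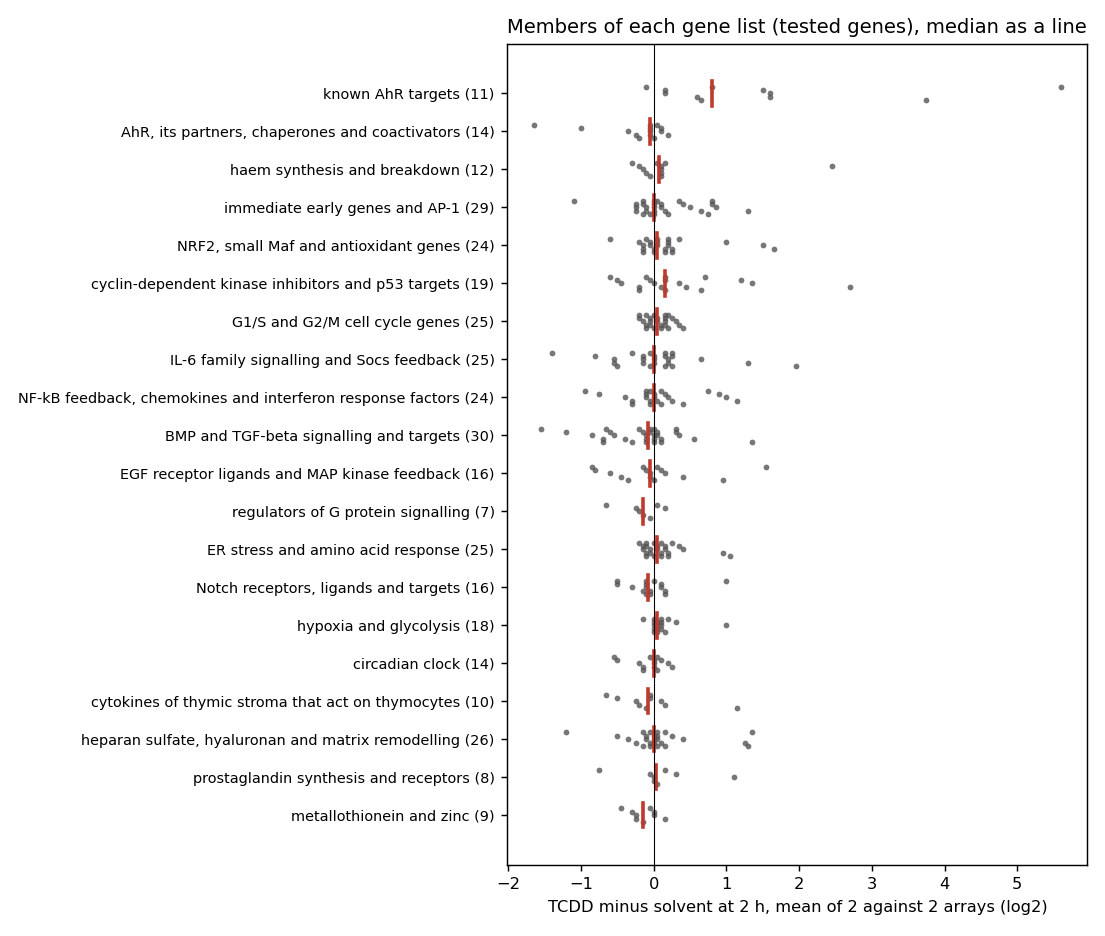
Each grey point is a tested gene of a list, placed at its TCDD minus solvent difference at 2 h (log2, mean of 2 against 2 arrays), with the red line at the median of the list and the number of tested genes in brackets. The median of the known AhR targets lies at 0.80, while the medians of the other 19 lists lie between -0.15 and 0.15.

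How the differences of 2 h compared with those at 4 and 6 h was set out from the other arrays. The choice by size at 2 h did not use them, but the filter on low values did, since its mean was taken over all arrays. Without that filter 34 higher and 7 lower probe sets reached this size at 2 h. The counts that follow are therefore not fully independent of the later arrays. Of the 32 higher probe sets, both differences were above 0 for 29 at 4 h and 28 at 6 h, beside 13.2% and 19.4% of all tested probe sets. Both reached 1 or more for 13 at 4 h and 10 at 6 h, beside 0.146% and 0.266%. Of the 7 lower probe sets, both differences were below 0 for 3 at 4 h and 5 at 6 h, beside 15.7% and 25.2%, and 1 at 4 h and 0 at 6 h reached -1 or less in both, beside 0.00634% and 0.0127%.

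The later differences were mostly smaller, in a set that had been chosen for its size at 2 h. The mean of the 4 h and 6 h differences was below that of 2 h for 28 of the 32, and it was nearer to 0 for all 7 lower probe sets. The fitted difference was smaller than at 2 h by more than a factor of 2 for 8 of the 32 at 4 h and for 15 at 6 h.

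The fitted differences at each time are given here as descriptions, since no probe set passed the contrast over time below in the main fit. The Cyp1a1 difference was 5.60, 6.5 and 5.40 at 2, 4 and 6 h, that of Aldh3a1 1.60, 1.90 and 2.25, and that of Gpc1 1.30, 2.2 and 2.00. Cpox stood at 2.45, 1.5 and 1.60 on probe set 1422493_at and at 2.30, 2.50 and 1.95 on 1422492_at. For another group the difference was near 0 by 6 h: Cdkn1a stood at 2.70, 1.60 and 0.40, Maff at 1.65, 1.5 and 0.15, Socs3 at 1.90, 0.65 and 0.25, and Spsb1 at 1.10, 0.20 and -0.05. The value of Cdkn1a at 4 h joined differences of 2.5 and 0.7, the first from the array that stood apart. Every 4 h value here includes that array. Its difference came first in 1.1 and 0.2 for Socs3, 2.0 and 1.0 for Maff, and 1.2 and 1.8 for Cpox on 1422493_at. On the lower side Rgs4 stood at -1.45, -1.25 and -0.90, and Id1 at -1.55, -0.15 and -0.40.

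**Figure D4:**
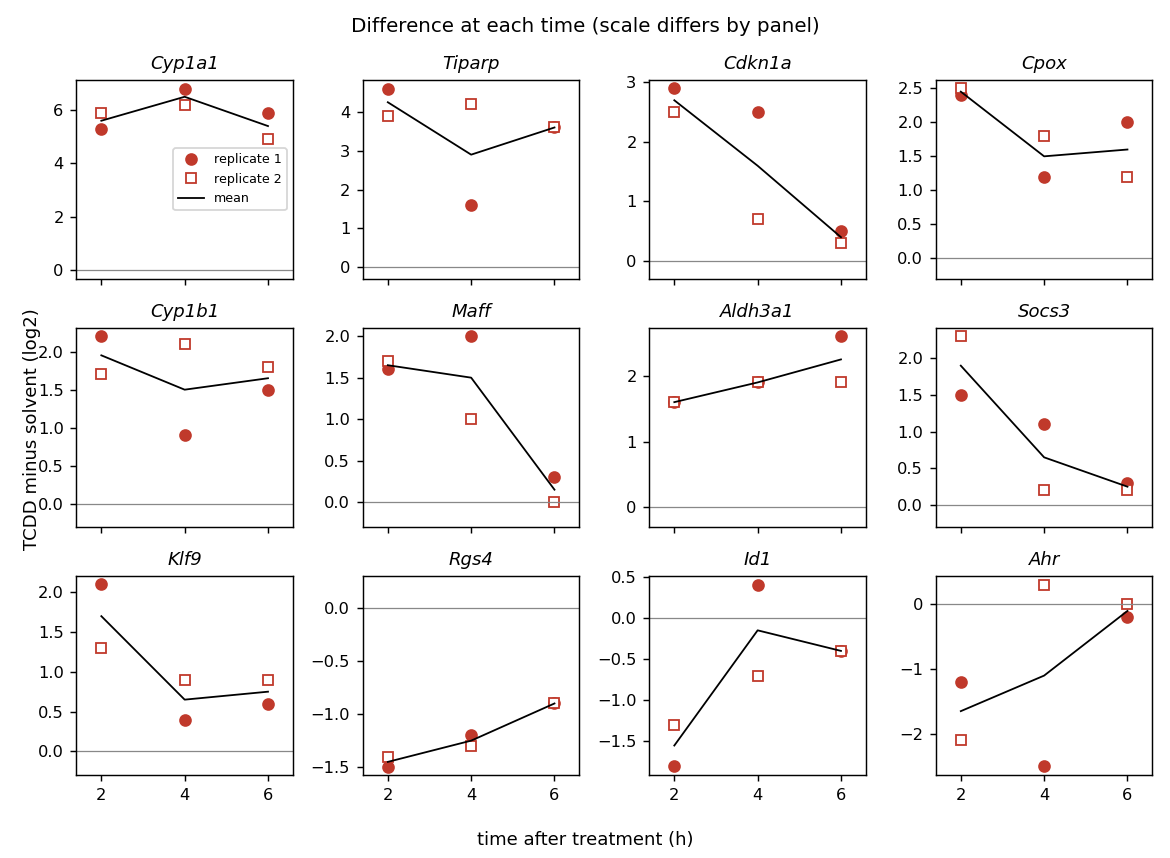
TCDD minus solvent difference (log2) at 2, 4 and 6 h within replicate 1 (filled circles) and replicate 2 (open squares), with a line through the means, for 12 genes ranked at 2 h; the vertical scale differs between panels. Cyp1a1, Tiparp, Cpox, Cyp1b1 and Aldh3a1 stay well above 0 at 6 h, while Maff and Socs3 lie between 0 and 0.3 there.

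A contrast of the 2 h difference against the mean of the differences at 4 and 6 h asked where they differed. No probe set passed limma's adjusted p of 0.05 (0 of 15762, 0.0%), and 185 had an unadjusted p under 0.05. The 5 genes with the lowest p among those with both differences at 1 or more were Socs3 (1.45 ± 0.30 SE), Spsb1 (1.02 ± 0.26), Smim3 (1.05 ± 0.34), Cpox on 1422493_at (0.90 ± 0.30) and Cdkn1b (1.00 ± 0.39), each with adjusted p = 1. Socs3 is named above, and Spsb1 encodes a SOCS box protein that recruits a ubiquitin ligase. Spsb1 read 7.7 and 7.9 with TCDD at 2 h, against 6.5 and 6.9 in solvent, on 1 probe set, while its other tested probe sets stood at 0.05 and 0.65. For these genes the smaller later difference is thus a description and not a call.

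Replicate numbers at 2 h coincided with a grouping of all 12 arrays by similarity, in which 7 arrays made a larger set and 5 the other. A fit with this array set as a block, added after seeing the data, called 10 probe sets of 9 genes at 2 h (0.0634% of those tested), 9 higher and 1 lower, and all 3 probe sets of Cyp1a1 and Cpox were among them. The sets were drawn from the same values, so the p-values of this fit can be too small. Beyond those 2 genes it called Cdkn1a (limma adjusted p = 0.00186), Cyp1b1, Fosl1 on 1417487_at, Aldh3a1, Cdkn1b, Socs3 and, on the lower side, Rgs4. When the 4 h TCDD array that stood apart was also left out, 24 probe sets passed, 20 higher and 4 lower. Among those added were all 3 probe sets of Tiparp, both of Zfp503 and the first of Ahr (adjusted p = 0.0420).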

How the data were processed

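RNA of ET cells was measured on 12 Affymetrix arrays, and the 4 arrays of 2 h were compared with limma over all 12. The authors deposited log2 levels of probe sets. The submitters' processing notes name RMA, which corrects background, gives all arrays 1 distribution and combines the probes of each set; its version, other steps and the genome build are not given in the sources used here. Over all probe sets every array had a median of 5.1 at the 1 decimal given, so a shift common to all genes could not be seen. Values carry 1 decimal and differences are compressed near background. No scanner files were used, no depth applies to arrays, and 0 columns of values were left unused.

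Of 22690 probe sets, 64 controls were left out. The platform annotation gave 20380 of the rest 1 symbol, 691 several and 1555 none; 20351 matched a RefSeq table of GRCm38.p6, which changed 0 symbols. The filter (mean log2 of 4 or more over 12 arrays) left 15762 probe sets, of which 14495 had 1 symbol.

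Each of the 6 groups had its own mean in limma 3.58.1 (R 4.3.3; residual degrees of freedom 6; empirical Bayes prior of 3.80 degrees of freedom and a log2 SD of 0.218), with two-sided moderated tests and Benjamini-Hochberg adjustment over all tested probe sets at 0.05. Errors are standard errors of that fit, n = 2 against 2, and a fold is 2 raised to the log2 difference. Tables used Python 3.11.15 with pandas 2.3.3. The fit was run on simulated data with known changes and independent noise on each array. That run lacked the differences shared by arrays of 1 number, so it cannot show how the fit behaves on these arrays. For the pairing check, first-minus-second differences were correlated between TCDD and solvent over the tested probe sets: r was 0.37, 0.16 and 0.71 at 2, 4 and 6 h. All lay above 0.1, so the numbers in the labels were taken as pairs in the within-number differences. At 4 h r was lowest and the first TCDD array stood apart, so the within-number counts at 4 h rest on the weakest pairing. The main fit held no term for the number. Values with a replicate block are given beside it where they change a call.

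The comparison, the gene lists and the markers were chosen with earlier results of these data known. Named were every gene past the test, the first 20 higher and 10 lower genes by the smaller within-number difference (ties by the mean difference), members of 20 gene lists with the largest smaller difference (up to 4 a list, and all AhR targets on the array), and the 5 genes with the lowest p in the contrast over time. In lists a gene stands by its tested probe set with the highest mean. Alternatives were other filters and scalings, blocks, a variance trend, 1 probe set per gene, only the 4 arrays of 2 h, each array left out, crossed numbers and, added after seeing the data, the array set as a block with and without the first 4 h TCDD array. The sets came from cutting a complete-linkage tree of the 12 arrays into 4 clusters, with the largest as 1 set and all other arrays as the other.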

Additional observations from a re-analysis of the deposited data

How the results depend on the processing

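For TCDD against solvent at 2 h, 3 probe sets passed in the fit reported. With each array centred on its median over the tested probe sets 5 passed, with the replicate block within each time 1, on the 4 arrays of 2 h alone 0 (313 with an unadjusted p under 0.05), and on these with a replicate block 0 (460 unadjusted). The array set as a block gave 10, and with the first 4 h TCDD array left out as well 24. Leaving out each of the 12 arrays in turn gave 0 to 9. The count was 0 without the second TCDD array or either solvent array of 2 h (201 to 411 with an unadjusted p under 0.05), 1 without the first TCDD array of 2 h or either solvent array of 4 h, 2 without any array of 6 h, and 9 without either TCDD array of 4 h, whose pair then adds no spread. Other filters, quantile normalization again, the replicate block over all times, a variance trend and 1 probe set per gene gave 2 to 4; no filter added Usp53 (1.80, limma adjusted p = 0.0145, mean log2 level 3.66). Apart from Cpox, whose call was lost with the block within each time, the replicate block changed no call among the genes named. The number of probe sets with both differences at 1 or more in 1 direction was 39, with crossed numbers it was 19, and with a size of 0.5 it was 208. The contrast of 2 h against later passed 0 in every setting (97 to 684 with an unadjusted p under 0.05) except the array set as a block without the first 4 h TCDD array, where 1, Cdkn1a, passed (2.12 ± 0.19 SE, adjusted p = 0.0392; 1165 unadjusted). Of the 32 probe sets named by rank or test, 1 changed direction in any of its 23 to 25 settings: Ereg, at -0.25 without the first solvent array of 2 h, and at 3.35 without the second. No list median moved under another scaling. The number of arrays, 2 per group, and levels near background limit what can be seen; the cause of these moves was not tested beyond what each setting removes.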

Other observations

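A probe set without a single gene symbol in the platform annotation, 1418250_at, also had both differences at 1 or more, with a mean difference of 1.25 and overlapping groups. Further genes at the 1.0 or 0.9 step, chosen after their values were seen, are of other functions: Tcf21, a basic helix-loop-helix factor of mesenchyme, with a mean difference of 1.10, Lpin1, a phosphatidate phosphatase, with 1.15, Mnt, a Max partner that opposes Myc, with 1.10, Ptch1, the Hedgehog receptor, with 1.00, and Nfkbiz, a nuclear IkB protein, with 1.00. None passed limma's adjusted p of 0.05.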
